A study of Sus scrofa with 9 samples.

Results

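The transcripts of *ULK1*, *GABARAP* and *GABARAPL2*, which encode proteins of the autophagy machinery, were followed in porcine hatched blastocysts (HB). These 3 of 7495 named genes on the array were picked because earlier results of the same arrays placed them higher in cloned than in in vivo-derived embryos. Each was measured by 1 of 23971 probes. The embryos were produced by somatic cell chromatin transfer (CT HB), in which a donor cell treated to condense its chromatin is joined to an enucleated oocyte, by parthenogenetic activation of oocytes (PA HB), which leaves them with no paternal genome, or in vivo (IVV HB) after insemination of gilts. CT HB and PA HB shared in vitro maturation of the oocytes, activation with ionomycin and 6-dimethylaminopurine, and culture in an NCSU-23-based medium. IVV HB were collected 5.5 days after insemination. Embryo type, oocyte maturation, activation, culture and time of collection therefore cannot be told apart in comparisons with IVV HB. The labels give the collection time of CT HB and PA HB as 7 hpf, counted in hours, although the study's methods describe a culture of days. Each group comprised 3 pools of 5 embryos, and 1 pool was hybridised to each of the 9 arrays with Cy5, against a Cy3-labelled reference of pooled porcine oocytes and embryos. Values are given as the log2 ratio of the pool to this reference, so that 0 means as much as in the reference, and levels of different genes cannot be ranked against each other.

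Autophagy encloses cytoplasm in a double membrane, the autophagosome, which fuses with the lysosome so that its content is digested. ULK1 is the protein kinase that starts the process when nutrients or energy are short, under restraint by the mTORC1 kinase and stimulation by AMPK. GABARAP and GABARAPL2 (also known as GATE-16) are small ubiquitin-like proteins of the ATG8 family, which become attached to the lipid phosphatidylethanolamine of the growing membrane and bind cargo receptors as well as proteins of the machinery, ULK1 among them. In the mouse, embryos that lack the autophagy gene *Atg5*, including the supply from the oocyte, arrest before the blastocyst stage.

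*ULK1* was near the level of the reference in both kinds of manipulated embryo and below it in IVV HB. The log2 ratio was -0.23, -0.18 and -0.05 in CT HB, -0.22, 0.08 and 0.48 in PA HB, and -1.35, -1.06 and -1.27 in IVV HB. The IVV HB arrays all lay below the other 6, while those of CT HB and PA HB overlapped. Expressed as a ratio to the reference, the mean level was 0.9 in CT HB, 1.08 in PA HB and 0.426 in IVV HB. In CT HB *ULK1* was 2.11-fold above IVV HB (log2 1.08), a difference that served to pick the gene and is given as a description. In PA HB it was 2.54-fold higher than in IVV HB, a log2 difference of 1.34 with a 95% interval of 0.91 to 1.77 (limma, SE 0.20, adjusted p = 0.0027). CT HB and PA HB did not differ beyond the spread between arrays, with a log2 difference of -0.26 (95% interval -0.69 to 0.17, limma, adjusted p = 0.42).

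*GABARAP* had its highest mean in CT HB and its lowest in IVV HB. The log2 ratio was 0.35, 0.86 and 1.23 in CT HB, 0.43, 0.26 and -0.27 in PA HB, and -1.24, -0.47 and -0.42 in IVV HB. The arrays of CT HB and PA HB overlapped, and both groups lay above IVV HB, in which replicate 1 was the lowest. The mean ratio to the reference was 1.76 in CT HB, 1.1 in PA HB and 0.613 in IVV HB. CT HB stood 2.87-fold above IVV HB (log2 1.52), again a description, and 1.26 on the log2 scale without IVV HB replicate 1. The log2 difference between PA HB and IVV HB was 0.85 (95% interval 0.21 to 1.48, limma, adjusted p = 0.075), and that between CT HB and PA HB was 0.67 (0.04 to 1.31, limma, adjusted p = 0.15), so that neither neighbouring pair in this order passed the adjustment over all genes.

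*GABARAPL2* was near the level of the reference in CT HB and lower in both other groups. The log2 ratio was -0.22, -0.55 and 0.18 in CT HB, -1.25, -0.94 and -1.39 in PA HB, and -1.37, -1.14 and -1.34 in IVV HB. All CT HB arrays lay above the other 6, and those of PA HB and IVV HB overlapped. The mean ratio to the reference was 0.874 in CT HB, 0.438 in PA HB and 0.411 in IVV HB. The difference between CT HB and IVV HB, by which the gene was picked, was 2.13-fold (log2 1.09). CT HB exceeded PA HB by 1.00 on the log2 scale (95% interval 0.54 to 1.46, limma, adjusted p = 0.01), which passed the adjusted p but lay just under the 2-fold limit of the study's rule. The adjusted p was not passed after scale normalization (0.72, limma, adjusted p = 0.074) or without CT HB replicate 3 (0.81, adjusted p = 0.054), and was 0.05 after quantile normalization (0.88). PA HB differed from IVV HB by 0.09 (-0.37 to 0.55, limma, adjusted p = 0.82), and after scaling all arrays to an equal spread by 0.60 (adjusted p = 0.14).

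**Figure D1:**
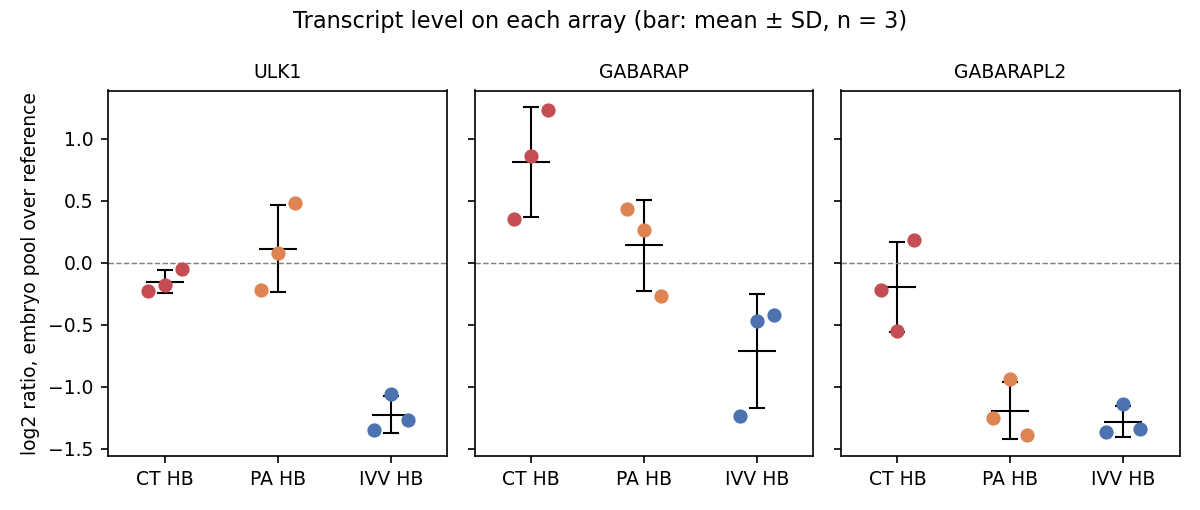
Log2 ratio of embryo pool over reference for *ULK1*, *GABARAP* and *GABARAPL2* on each array of CT HB, PA HB and IVV HB. Points are arrays, and bars the mean ± SD (n = 3). *ULK1* is low in IVV HB (-1.35 to -1.06), and *GABARAP* has its highest mean in CT HB (0.35 to 1.23), where it overlaps PA HB. *GABARAPL2* is near the reference in CT HB (-0.55 to 0.18) and lower in both other groups.

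For *ULK1* and *GABARAP* the PA HB arrays overlapped those of CT HB and lay above IVV HB, and for *GABARAPL2* they overlapped those of IVV HB and lay below CT HB. Whether the profiles of the 3 genes differ from each other was not tested. The tests of PA HB against IVV HB and of CT HB against PA HB each use 1 of the groups by which the genes were picked and are not independent of that choice. The study's rule asks for an adjusted p not above 0.05 and at least a 2-fold change. By it, *ULK1* was the 1 of the 3 genes called higher in PA HB relative to IVV HB, where 4.34% of all genes were called higher and 3.38% lower, and 0 of the 3 were called between CT HB and PA HB, where 2.95% were higher and 4.83% lower in CT HB. In CT HB against IVV HB, the comparison that chose the genes, 0.574% of all genes were called higher and 0.0801% lower, and all CT HB arrays lay above all IVV HB arrays for 9.79% of genes and below them for 9.37%. These shares over all genes rest partly on single arrays. In PA HB against IVV HB the 325 higher genes numbered 127 without IVV HB replicate 1, 180 without PA HB replicate 2 and 191 without PA HB replicate 3, and the 253 lower ones 146 and 162 without the first and the second of these. In CT HB against PA HB, 102 genes in place of 221 were higher and 224 in place of 362 lower without CT HB replicate 3, and 134 were higher without PA HB replicate 2. In CT HB against IVV HB the 43 higher genes numbered 20 without CT HB replicate 3, 22 without IVV HB replicate 1 and 23 without IVV HB replicate 3, and the 6 lower ones 0 to 18 over all omissions. Other omissions raised the counts. In PA HB against IVV HB, 435 were higher and 320 lower without PA HB replicate 1, and 408 and 278 without IVV HB replicate 2. In CT HB against PA HB, 324 were higher and 466 lower without PA HB replicate 1, and 301 and 389 without CT HB replicate 2. With single arrays left out, each of the 3 genes met the rule in only 3 of 9 cases in CT HB against IVV HB. For *ULK1* all of these were omissions of PA HB arrays, which do not enter the difference. For *GABARAP* they were CT HB replicate 1 and PA HB replicates 1 and 3, and for *GABARAPL2* CT HB replicate 2 and PA HB replicates 1 and 2. Over all omissions the log2 difference of CT HB and IVV HB was 1.02 to 1.16 for *ULK1*, 1.26 to 1.75 for *GABARAP* and 0.90 to 1.26 for *GABARAPL2*. Among all genes ranked by that difference, *GABARAP* had 0.32% of genes above it, *GABARAPL2* 1% and *ULK1* 1.04%. Ranked by the difference of PA HB and IVV HB, 2.78% of genes lay above *ULK1*, 6.59% above *GABARAP* and 41.7% above *GABARAPL2*. Arrays of a group scattered more for *GABARAP*, with a residual SD of 0.43, than for *GABARAPL2* (0.26) and *ULK1* (0.23), beside a median of 0.25 over all genes.

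**Figure D2:**
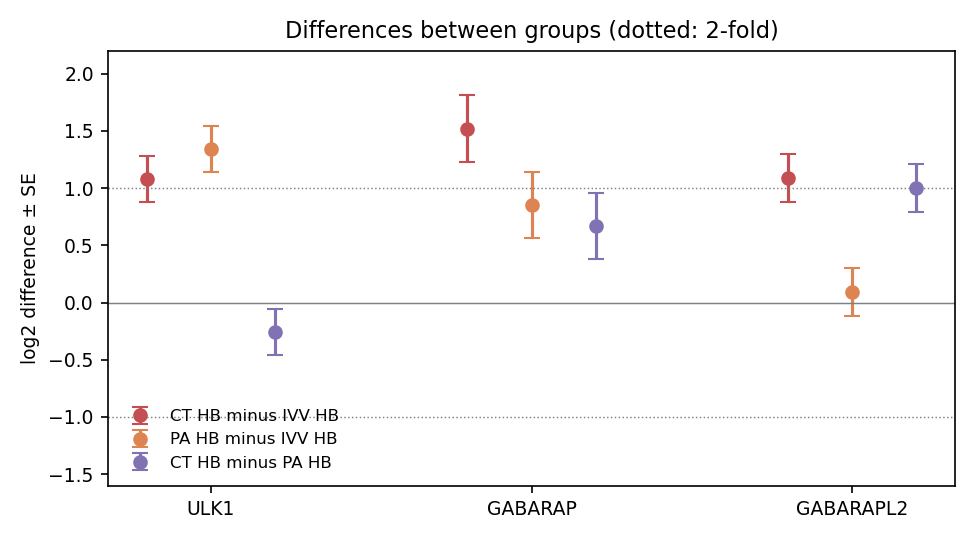
Log2 differences ± SE between groups for *ULK1*, *GABARAP* and *GABARAPL2*, with 0 as a solid line and a 2-fold change as dotted lines. *ULK1* is higher in both CT HB (1.08) and PA HB (1.34) than in IVV HB, whereas *GABARAPL2* stands at 1.09 in CT HB and near 0 in PA HB (0.09) against IVV HB.

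Markers of cell types were read beside these values as medians of whole lists. Trophectoderm genes, 12 of 16 of which were measured, lay between 0.15 and 0.32 in CT HB, 0.18 and 0.60 in PA HB, and 0.09 and 0.43 in IVV HB. Inner cell mass genes (6 of 12 measured) lay between -0.05 and 0.11 in CT HB, 0.11 and 0.58 in PA HB, and 0.13 and 0.28 in IVV HB. The median of the oocyte genes (13 of 15) was far below the reference, at -3.41 to -3.15 in CT HB, -2.38 to -1.75 in PA HB and -3.42 to -2.78 in IVV HB. Not all of them were that low, as *FIGLA*, *NLRP5*, *NOBOX* and *TCL1A* lay between -1.07 and 0.98 on every array. Fibroblast genes (7 of 13) reached at most -0.32 in CT HB, -0.15 in PA HB and -0.47 in IVV HB. Leukocyte and macrophage genes (6 of 14) ranged from 0.12 to 0.40 in CT HB, 0.10 to 0.43 in PA HB and -0.10 to 0.23 in IVV HB. In this list *AIF1* stood apart, at 4.93 to 5.35 in CT HB, 4.25 to 5.18 in PA HB and -0.03 to 0.45 in IVV HB. The others (*PTPRC*, *CSF1R*, *FCER1G*, *SPI1* and *CD3E*) lay between -1.02 and 0.73 on every array and had no rise of that size. The part of all these markers in the levels of the 3 genes was not tested. PA HB arrays had the widest spread of values, with interquartile ranges of 0.85 to 1.03 against 0.58 to 0.66 in CT HB and 0.55 to 0.67 in IVV HB. In pools of whole embryos, fewer cells that express a gene and less RNA per cell cannot be told apart.

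The other measured genes of the ATG8 family were *MAP1LC3A* and *MAP1LC3B*, which encode LC3 proteins and belong to its other branch. *GABARAPL1* and *MAP1LC3C* were not analysed here. *MAP1LC3A* had log2 ratios of -0.27, -0.32 and -0.19 in CT HB, -0.50, -0.44 and -0.22 in PA HB, and -0.56, -0.05 and -0.22 in IVV HB. The 3 groups overlapped, and CT HB differed from IVV HB by 0.02 (95% interval -0.37 to 0.40, limma, adjusted p = 0.99). *MAP1LC3B*, averaged over its 3 probes, stood at -0.69, -0.85 and -0.72 in CT HB, -1.59, -0.90 and -1.09 in PA HB, and -1.27, -1.37 and -1.39 in IVV HB. CT HB thus lay above both other groups on every array, but by 0.59 (SE 0.19) against IVV HB and 0.44 against PA HB, which did not pass (limma, adjusted p = 0.23 and 0.16).

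The probes of *MAP1LC3B* disagreed. Probe 17897 had log2 ratios of -1.64, -1.96 and -1.41 in CT HB, -2.58, -2.33 and -2.59 in PA HB, and -2.80, -2.96 and -2.75 in IVV HB. On this probe CT HB lay above the other 6 arrays, as on that of *GABARAPL2*. When each of the 23971 probes was fitted on its own, it was 2.25-fold higher in CT HB than in IVV HB (log2 1.17, limma, adjusted p = 0.022), where 0.388% of probes were called higher. Against PA HB it was 1.78-fold higher in CT HB (log2 0.83, adjusted p = 0.015), under the 2-fold limit, where 3.22% of probes were called higher and 5.63% lower. Probe 19829 differed by 0.60 between CT HB and IVV HB (adjusted p = 0.6), and probe 10206 by -0.01 (adjusted p = 1).

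**Figure D3:**
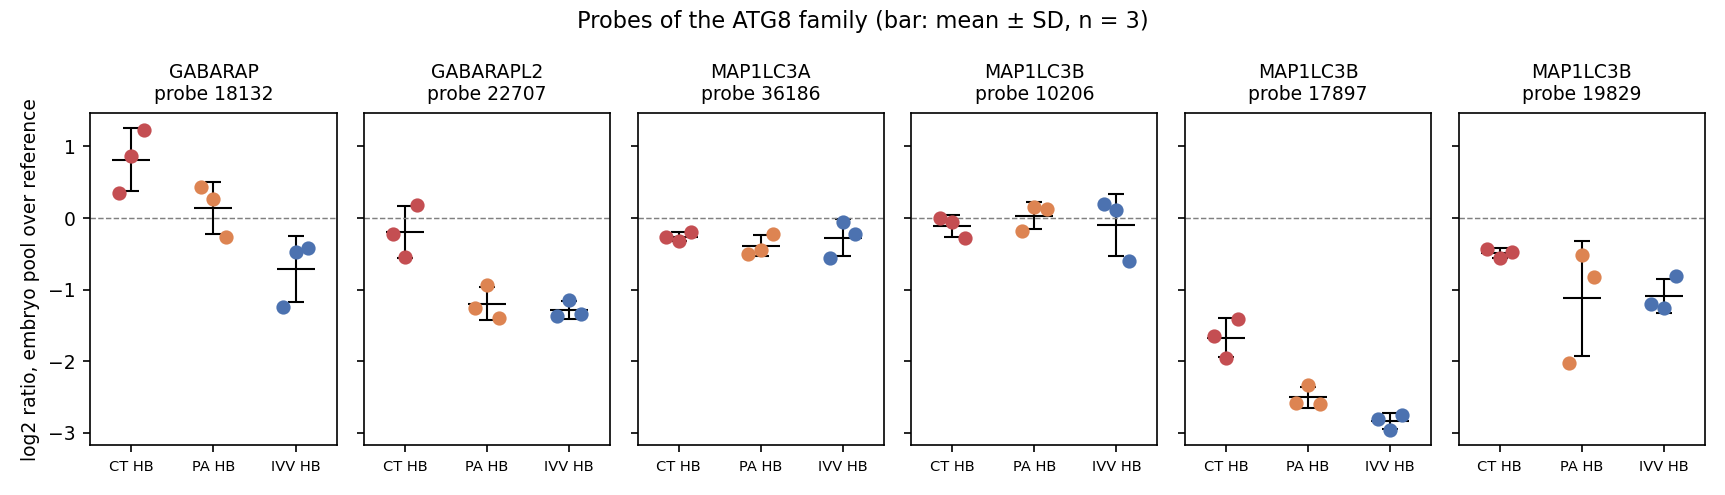
Log2 ratios over the reference for every named probe of the ATG8 family in CT HB, PA HB and IVV HB (points are arrays, bars the mean ± SD, n = 3). On the probe of *GABARAPL2* and probe 17897 of *MAP1LC3B*, all CT HB arrays lie above the others. The probe of *GABARAP* and probe 19829 of *MAP1LC3B* have their highest mean in CT HB but overlap PA HB. *MAP1LC3A* and probe 10206 of *MAP1LC3B* overlap in all groups.

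Further genes of the pathway were taken from a list of 102 autophagy genes arranged by role, 54 of which were named on the array and 51 of which were not among the 3 genes above. The partners of ULK1 in its kinase complex, such as *ATG13* and *RB1CC1*, were not analysed here, so that *ULK1* stands alone for that step. Between CT HB and IVV HB, 0 of the 51 genes were called in either direction (limma), and 3 higher and 1 lower passed an unadjusted p of 0.05, which is 5.88% and 1.96% of them beside 5.95% and 5.06% of all genes. With 0.574% of all genes called higher, a count of 0 does not set the list apart. Their median difference was 0.08, beside -0.01 over all genes. All CT HB arrays lay above all IVV HB arrays for 9 of the 51, a larger share than the 9.79% of all genes. They lay below for 1 of the 51, a smaller share than the 9.37% of all genes. Whether the list differs from all genes in these shares was not tested. The nearest to the 3 chosen genes was *CCPG1*, a receptor for autophagy of the endoplasmic reticulum, at 0.71 (SE 0.22, adjusted p = 0.2), against 1.08 for *ULK1*, the smallest of the 3. *SEC62*, a receptor of the same kind, was lowest at -0.78 (limma, adjusted p = 0.17). The 11 genes listed as regulators around mTORC1, AMPK and the transcription factor TFEB stood between -0.69 and 0.37. Among them, the gene of the mTOR kinase, *MTOR*, was at 0.05 and that of the AMPK-activating kinase, *STK11*, at 0.37. *BECN1*, of the lipid kinase complex that acts after ULK1, was at -0.35. The 6 genes for processing and attaching ATG8 proteins to lipid, such as *ATG7*, ranged from -0.21 to 0.04.

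Between PA HB and IVV HB 3 of the 51 genes (5.88%) were called higher and 0 lower, a share near the 4.34% of all genes called higher. *RHEB*, listed with the mTORC1, AMPK and TFEB genes, passed the adjusted p without reaching 2-fold (0.58, limma, adjusted p = 0.036). *ATG2A*, a lipid transfer protein of the growing membrane, had log2 ratios of 2.64, 2.24 and 2.35 in PA HB against 0.34, 1.07 and 0.86 in IVV HB, and was 3.15-fold higher (log2 1.66, limma, SE 0.21, adjusted p = 0.0017). *STX17*, the SNARE protein by which the autophagosome fuses with the lysosome, had 1.54, 1.46 and 2.07 in PA HB against -0.39, 0.20 and 0.52 in IVV HB, a 2.99-fold rise (log2 1.58, limma, SE 0.26, adjusted p = 0.0044). *PRKAA2*, a catalytic subunit of AMPK, had 2.54, 3.68 and 3.59 in PA HB against 0.47, 2.44 and 1.12 in IVV HB, where replicate 2 nearly reached the lowest PA HB array (log2 difference 1.93, SE 0.50, adjusted p = 0.026). Its probe followed a profile over the arrays that 556 probes (2.32%) shared (r of at least 0.95), with medians of 2.34, 3.5 and 3.56 in PA HB against 0.41, 2.29 and 1.1 in IVV HB, and its values cannot be told apart from that profile. The probes of *STX17* and *ATG2A* did not reach that r, but correlated with the profile at 0.89 and 0.84. For these 3 genes, and 6 more of the 51, all PA HB arrays lay above all IVV HB arrays, a share somewhat above the 15.1% of all genes. For 6 of the 51 they lay below, a share under the 15.7% of all genes. *STX17* and *ULK1* were called under every normalization tried, whereas *ATG2A* was not after quantile (0.86, adjusted p = 0.12) or scale normalization (0.98, just under 2-fold). *PRKAA2* was not called after either of these (0.68 and 0.98, adjusted p = 0.44 and 0.24), nor without PA HB replicate 2 or 3 or IVV HB replicate 1 or 3 (adjusted p of 0.095, 0.079, 0.12 and 0.084).

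The same 3 genes were the listed ones called lower in CT HB against PA HB, and 1 of the 51 was called higher. Over all genes 4.83% were called lower and 2.95% higher, so that these counts do not set the list apart. The arrays of CT HB lay wholly above those of PA HB for 10 of the 51 genes, a share somewhat above the 15% of all genes. They lay wholly below for 8 of the 51, a share near the 16.2% of all genes. *PRKAA2* was 0.45, 1.47 and 0.06 in CT HB, a log2 difference of -2.61 (limma, SE 0.50, adjusted p = 0.0071), *STX17* was -0.28, 0.34 and -0.09 (-1.70, SE 0.26, adjusted p = 0.0048) and *ATG2A* was 1.07, 0.99 and 0.73 (-1.48, SE 0.21, adjusted p = 0.0048). After quantile normalization the differences of *PRKAA2* (-1.24, adjusted p = 0.14) and *ATG2A* (-0.38, adjusted p = 0.51) were not called, nor was that of *ATG2A* after scale normalization (-0.80, adjusted p = 0.038). These comparisons share the PA HB arrays with the previous ones. *CCPG1* was the 1 listed gene called higher in CT HB, at -0.40, -1.01 and -0.57 in CT HB against -1.87, -1.49 and -1.88 in PA HB (log2 1.09, SE 0.22, adjusted p = 0.0082). Both of its probes lay in that direction, at 0.98 and 1.19, while without CT HB replicate 1 it was at 0.96 and after scale normalization at 0.60 (adjusted p = 0.041 and 0.091), neither of which met the rule. The cargo receptor gene *CALCOCO2* (0.68, adjusted p = 0.017) and *STK11* (0.65, adjusted p = 0.047) passed the adjusted p without reaching 2-fold.

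**Figure D4:**
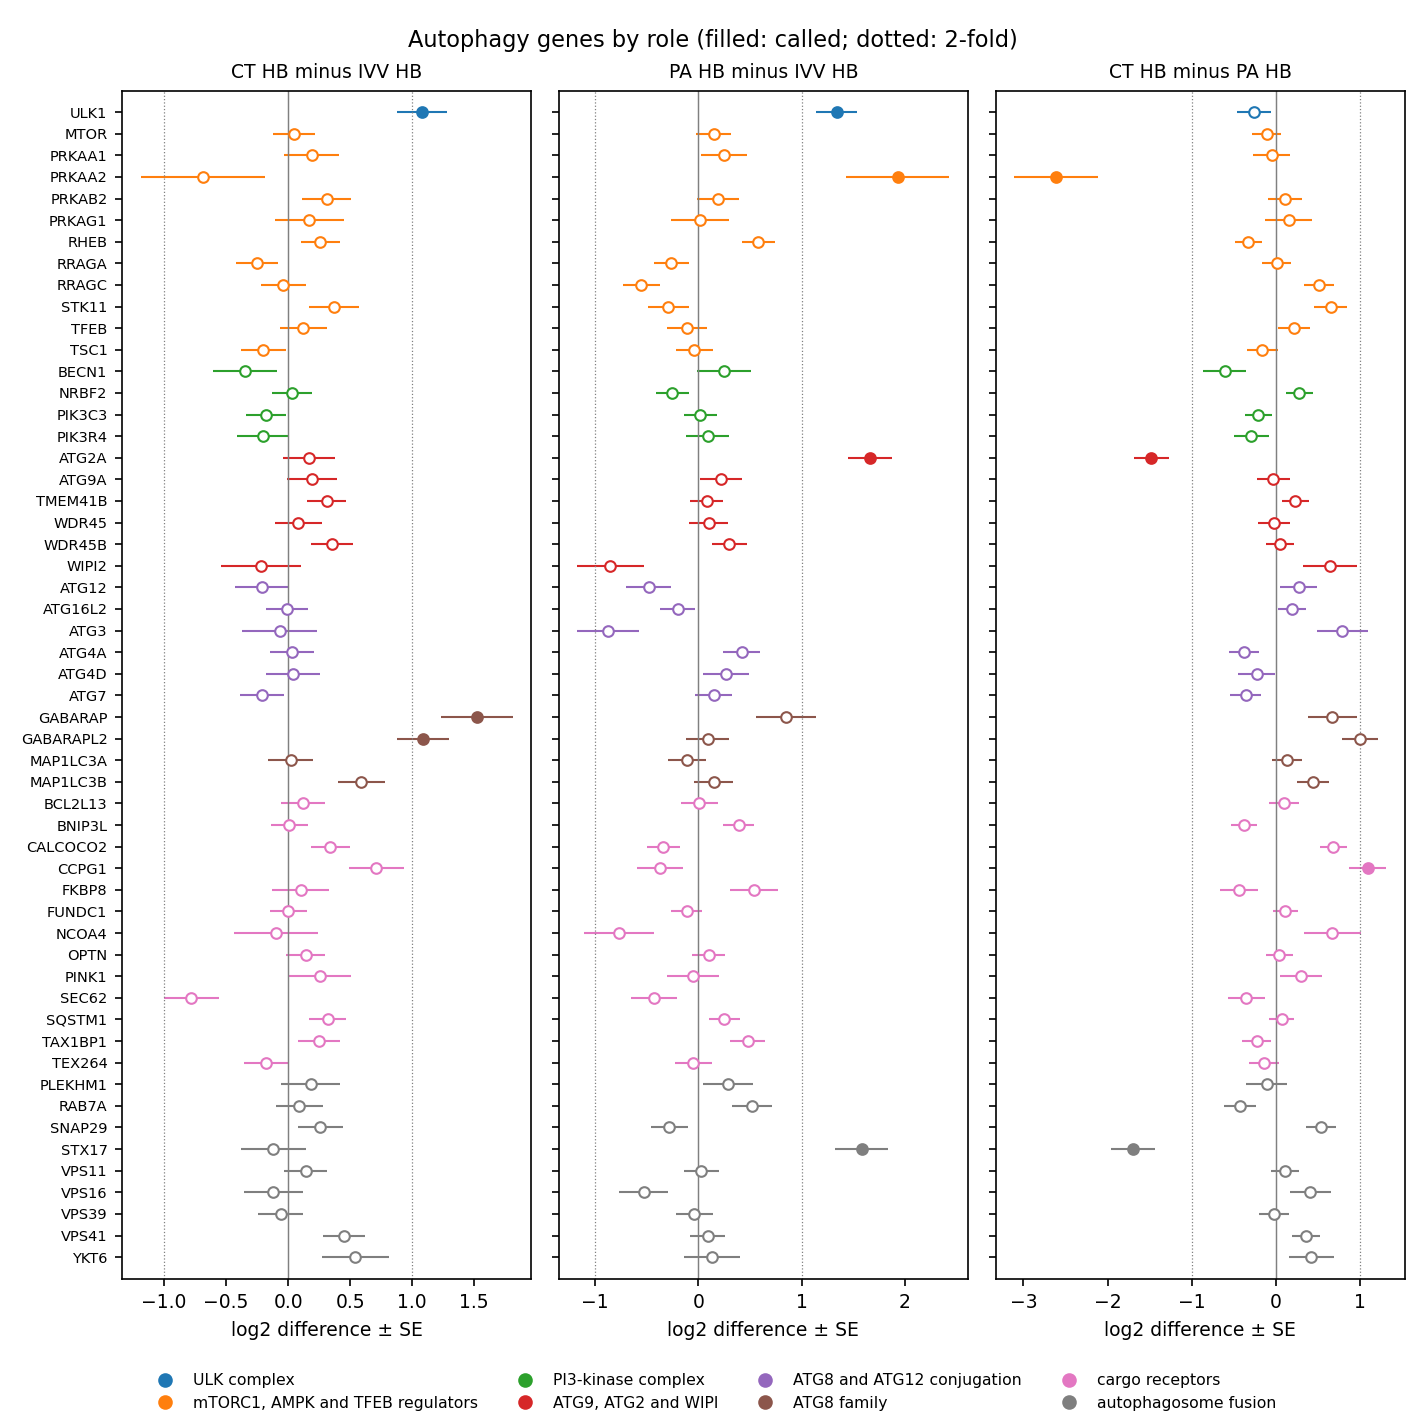
Log2 differences ± SE of the 54 measured autophagy genes in 3 comparisons, grouped and coloured by role. Filled points are those past the study's rule, with 2-fold as dotted lines. In the panel of CT HB and IVV HB the filled points are *ULK1*, *GABARAP* and *GABARAPL2*, which were picked by that comparison, and in the panel of PA HB and IVV HB they are *ULK1*, *PRKAA2*, *ATG2A* and *STX17*.

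*SQSTM1*, which encodes the cargo receptor p62 that binds ATG8 proteins and ubiquitin, was at 0.02, -0.07 and 0.14 in CT HB, -0.16, 0.04 and -0.00 in PA HB, and -0.39, -0.26 and -0.22 in IVV HB over its 4 probes. Probe 19151 alone had -0.10, -0.06 and 0.22 in CT HB, -0.37, -0.16 and -0.13 in PA HB, and -0.90, -0.95 and -0.80 in IVV HB. On this probe IVV HB lay below the other 6 arrays, as for *ULK1*, and the differences passed the adjusted p in the fit per probe, but not the 2-fold limit, for CT HB against IVV HB (0.90, adjusted p = 0.049) and for PA HB against IVV HB (0.66, adjusted p = 0.028). The other 3 probes did not pass and did not share its direction throughout. Probe 40262 stood at -0.35 in CT HB and -0.51 in PA HB against IVV HB, probe 3601 at 0.13 and 0.61, and probe 32411 at 0.58 and 0.22. *SQSTM1* and its probe 19151 were named after their values had been seen.

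The genes whose values over the 9 arrays were most like those of each gene were found by Pearson correlation among 7010 genes, as a description, since the arrays fall into 3 groups. For *GABARAP* they were *CD63*, a membrane protein of late endosomes and lysosomes (r = 0.971), *TXNIP*, an inhibitor of thioredoxin (0.955), and *PPT1*, a lysosomal thioesterase (0.953). *CD63* was at 0.90, 1.25 and 1.78 in CT HB, 0.73, 0.53 and 0.23 in PA HB, and -0.31, 0.10 and 0.31 in IVV HB, so that within each group, too, its arrays had the order of those of *GABARAP*. For *GABARAPL2* they were *RPS27L*, a target of p53 (0.956), *ANXA2*, a membrane-binding annexin (0.956), followed by the focal adhesion protein gene *TES*. *ANXA2* was at 0.69, 0.37 and 1.18 in CT HB, -0.37, -0.77 and -0.75 in PA HB, and -1.09, -0.75 and -1.01 in IVV HB. For *ULK1* they were *UBE2C*, a ubiquitin-conjugating enzyme of mitosis (0.964), *PLEKHA7*, of adherens junctions (0.951), and the galectin gene *LGALS9* (0.936), whose differences between CT HB and IVV HB were small, at 0.29, 0.32 and 0.33. The lists of the 3 genes had no gene in common, but with only 3 of 7010 genes in each this cannot show whether their profiles differ. These correlations include the CT HB and IVV HB arrays by which the 3 genes were picked.

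**Figure D5:**
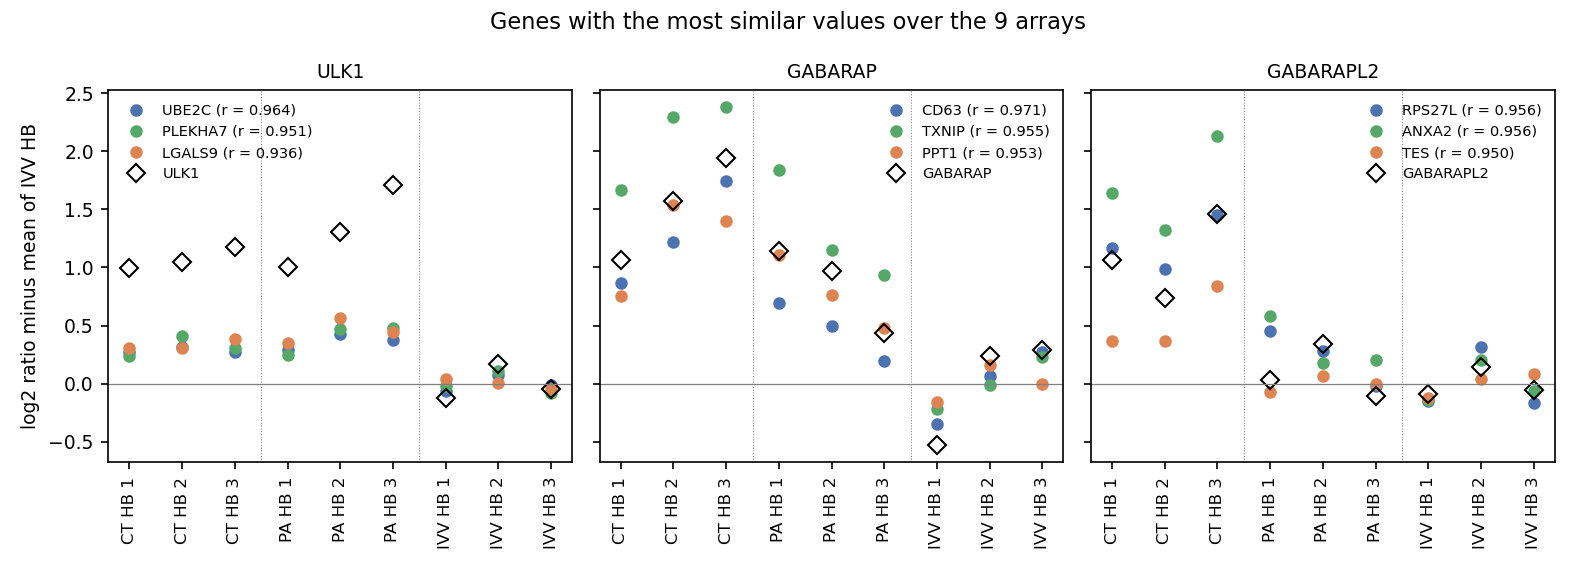
Log2 ratios on each array, set to the mean of IVV HB, for *ULK1*, *GABARAP* and *GABARAPL2* (diamonds) and for the 3 genes most like each (circles). Against IVV HB, the genes alike to *GABARAP* stand at 1.23 to 2.12 in CT HB (*GABARAP* 1.52), while those alike to *ULK1* follow its pattern over a smaller range.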

How the data were processed

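The log2 ratios of pool (Cy5) to reference (Cy3) were deposited by the authors after background subtraction and global loess within each array (FlexArray). Log base and direction are not written beside the values and were taken from their range, with array medians of -0.11 to -0.03, and from the dyes. Spot intensities were not used here, so that no probe could be set aside as near background. The platform annotation named 10344 probes (43.2%), of which 201 were renamed to current symbols through RefSeq accessions or synonyms (Sscrofa11.1, names only), and probes of a gene were averaged. Probe and gene sequences were not used here.

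Means of the 3 groups were estimated from all 9 arrays with limma 3.58.1 (R 4.3.3), two-sided, with Benjamini-Hochberg adjustment over 7495 genes, and the fit was tested on simulated data. The study describes the pools of a group as biological replicates, and their number limits the precision. The 3 genes, the list and the rule for named genes (the 3 genes, listed genes called in any comparison, all measured ATG8 and ULK complex genes, and the 3 most similar genes of each) were chosen with earlier results of these data known.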

Additional observations from a re-analysis of the deposited data

How the results depend on the processing

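The 3 genes were refitted in PA HB against IVV HB and CT HB against PA HB under other settings. These changed normalization between arrays, summary of probes, arrays in the fit, replicate block, weights, filter or threshold, or left out 1 array. Of 120 values, 114 kept their direction and their side of the threshold. Many settings could not move a difference, since each gene has 1 probe and an array outside the comparison does not enter it. Apart from *ULK1* in PA HB against IVV HB, keeping the side meant staying uncalled, even where *GABARAPL2* failed the adjusted p. The replicate block changed no tested call of the 3 genes, with *ULK1* at 1.34 in PA HB against IVV HB and *GABARAPL2* at 1.00 in CT HB against PA HB (adjusted p = 0.0018 and 0.014), and same-numbered arrays did not deviate together throughout (correlations of -0.15 to 0.31), so that the numbers were not taken as pairs. The difference of *GABARAPL2* between CT HB and PA HB passed both limits with array weights (1.07), and the adjusted p alone where no fold limit was set (1.00). It ranged from 0.81 to 1.17 without single arrays, passing both limits without CT HB replicate 1 or 2 or PA HB replicate 2 (1.01, 1.17 and 1.12) and failing even the adjusted p without CT HB replicate 3 (0.81, adjusted p = 0.054) and after scale normalization (0.72, adjusted p = 0.074). Its difference between PA HB and IVV HB ranged from -0.04 (without PA HB replicate 2) to 0.19. The cause was not tested. *ULK1* in PA HB against IVV HB was called in all 20 settings (1.16 to 1.55). The IVV HB arrays of this comparison also served to pick the gene, so that these calls are not independent of that choice. After quantile normalization the listed genes called higher in PA HB against IVV HB numbered 1 in place of 3 (all genes, 119 higher and 197 lower in place of 325 and 253), and those lower in CT HB against PA HB 1 in place of 3 (all genes, 225 higher and 146 lower in place of 221 and 362). Scale normalization gave 136 higher and 387 lower genes in CT HB against PA HB, and 346 and 165 in PA HB against IVV HB. In CT HB against IVV HB, 99 genes were higher and 31 lower after quantile normalization, and 77 and 28 after scale normalization, in place of 43 and 6. Listed genes higher in CT HB against PA HB, 1 in the fit reported, numbered 0 after scale normalization, 3 with no fold limit, and 0 to 1 without single arrays. In CT HB against IVV HB each of the 3 genes met the rule that picked it in only 3 of 9 omissions, as listed above. *GABARAPL2* did not meet it with the replicate block or in the fit per probe, at unchanged differences of 1.09. Leaving out 556 probes that follow 1 common profile, a setting added after the data had been seen, removed *PRKAA2*, whose values are those of that profile (r = 1.0), and none of the 3 genes.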

Other observations

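Several autophagy genes with more than 1 probe gave opposite values on different probes, and were named after their values had been seen. *VPS41*, of the complex that tethers autophagosomes to lysosomes, did not pass as a gene, but in the fit per probe its probe 24348 was 3.19-fold higher in CT HB against PA HB (log2 1.67, limma, adjusted p = 0.0045), at 0.22, 0.25 and 0.44 in CT HB against -1.42, -1.71 and -0.98 in PA HB. Its probes 8383 and 14813 stood at -0.56 and -0.02. *VPS39*, of the same complex, had probe 26747 at -1.14 in CT HB against PA HB (adjusted p = 0.014) and probes 23558 and 37766 at 0.66 and 0.41 (adjusted p = 0.11 and 0.17). *BECN1* had probe 28324 at 0.91 and probe 44392 at -0.41 in PA HB against IVV HB (adjusted p = 0.3 and 0.32). The correlation with the common profile of 556 probes was -0.85, 0.82 and 0.08 for *VPS41* probes 24348, 8383 and 14813. It was 0.92, -0.71 and -0.74 for *VPS39* probes 26747, 23558 and 37766, and 0.89 and -0.68 for *BECN1* probes 28324 and 44392. The part of that profile in these values was not tested. Which transcripts these probes bind was not examined here, and *ULK1*, *GABARAP* and *GABARAPL2*, each with 1 probe, offer no such comparison.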
